A study of Xiphophorus multilineatus with 4 samples.

Results

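From 18872 transcripts counted in the brains of adult male *Xiphophorus multilineatus*, 4 transcripts of genes that handle lipids and bile salts are described here. They are mogat3a (ENSXMAT00000008580), gdpd3b (ENSXMAT00000012016), ACSBG1 (ENSXMAT00000003162) and abcb11b (ENSXMAT00000013961). They were taken by identifier from the transcripts that the study listed as different between juvenile environments. The contrast described here is thus the one that chose them. Their values, p and calls below describe that contrast and are no independent support for a difference. There were 2 males from the high quality juvenile environment (HQJE, male 15 and male 11) and 2 from the low quality juvenile environment (LQJE, male 17 and male 18). HQJE males lived alone from day 14 of age on Tetramin and brine shrimp without restriction. As juveniles, LQJE males lived in group tanks above 6 fish per liter and received Tetramin once daily. Food and crowding thus changed together and cannot be told apart. The comparison asks how the environment of the juvenile bears on gene expression in the adult brain. All 4 males were laboratory-reared descendants of wild-caught females and belonged to the Y-II size class. As adults they received the high quality diet of Spirulina flakes, brine shrimp and bloodworms. During that diet, males of both groups were housed singly.

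Each of the 4 genes acts at a different step of lipid handling. Monoacylglycerol acyltransferases join a fatty acid to monoacylglycerol, which makes the diacylglycerol used for triglyceride. Acyl-CoA synthetases of the bubblegum family activate long chain fatty acids by linking them to coenzyme A, and in mammals ACSBG1 is known from brain. Glycerophosphodiester phosphodiesterase domain proteins cut glycerophosphodiesters and related lysophospholipids, which are products left after removal of fatty acids from a phospholipid. ABCB11 is the bile salt export pump of the mammalian liver, a membrane transporter that uses ATP to move bile salts into bile.

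Total counts per brain ranged from 14260762 in LQJE male 17 to 25531496 in LQJE male 18, and 18474 transcripts had at least 1 count. Expression is given as CPM, the read count of a transcript scaled to library size with TMM factors. CPM is not corrected for transcript length, so levels were compared between brains and not between genes. One brain stood apart from the others. Over the 15087 transcripts that averaged 1 CPM or more, 51 had over 75% of their CPM, summed over the brains, in LQJE male 17. The same share was reached by LQJE male 18 in 4, by HQJE male 15 in 4 and by HQJE male 11 in 5 transcripts. None of the 4 lipid and bile salt transcripts was among the 51. No marker of neurons, astroglia, oligodendrocytes, microglia, endothelium, liver, gut, fat, blood, pituitary or choroid plexus was paired with a transcript identifier here, so those cell types were not analysed here.

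Of the 4 transcripts, mogat3a, gdpd3b and abcb11b were higher and ACSBG1 was lower expressed in HQJE males. The groups did not overlap in any of the 4, as in 39.9% of all tested transcripts (18.8% with HQJE above LQJE and 21.1% with HQJE below). The study called a transcript changed at a 2-fold or larger difference with p, before adjustment, no larger than 0.01. By the quasi-likelihood test of edgeR, 3 of the 4 were past it, mogat3a and abcb11b higher and ACSBG1 lower, where 0.189% of all tested transcripts were called (0.0487% higher and 0.141% lower). Those calls were 9 higher and 26 lower with TMM scaling, and 19 higher and 21 lower without it. The members were picked from this same comparison, so nothing is read from that count. The Benjamini-Hochberg adjusted p over all tested transcripts in this test was 0.622 for mogat3a, ACSBG1 and abcb11b and 0.641 for gdpd3b. It depended on the test. In the edgeR exact test the adjusted p was 0.0462 for mogat3a, 0.000357 for ACSBG1, 8.19e-06 for abcb11b and 0.566 for gdpd3b, and in the edgeR likelihood ratio test it was 0.0380, 0.000302, 7.89e-06 and 0.448, respectively. DESeq2 gave no adjusted p for any of the 4, because its default filter on mean count left them out of the adjustment. Over all alternatives that gave one, fits with a brain left out included, the edgeR adjusted p ranged from 0.0380 to 0.998 for mogat3a, from 0.000302 to 0.998 for ACSBG1, from 7.89e-06 to 0.887 for abcb11b and from 0.389 to 0.998 for gdpd3b. Among all transcripts, 0 had an adjusted p of 0.05 or less by the quasi-likelihood test of edgeR (1403 had an unadjusted one), against 28 by the exact test and 42 by the likelihood ratio test. DESeq2 had 79, but adjusted only over the transcripts that its filter kept, so that number cannot be set beside the others. In RNA from entire brains, fewer cells of a type and less RNA per cell cannot be told apart.

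**Figure D1:**
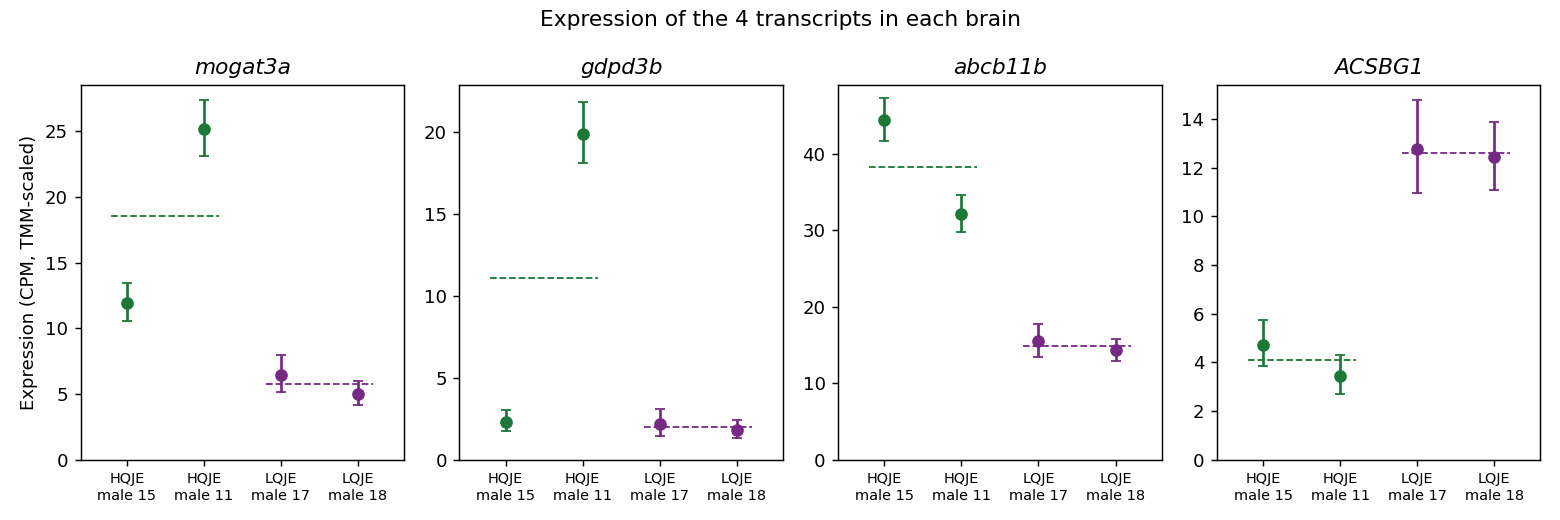
Expression of mogat3a, gdpd3b, abcb11b and ACSBG1 in each brain, in CPM on linear axes that start at 0. Points are single brains, bars are exact Poisson 95% intervals for counting error only, and dashed lines are group means. HQJE male 11 stands alone in gdpd3b at 19.9 CPM, while in abcb11b both HQJE brains, at 44.4 and 32.1 CPM, lie above both LQJE brains.

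The bile salt export pump abcb11b separated the groups with the smallest standard error of the 4 transcripts. It was read 977 times in HQJE male 15, 711 times in HQJE male 11, 214 times in LQJE male 17 and 359 times in LQJE male 18. These counts correspond to 44.4, 32.1, 15.5 and 14.3 CPM, respectively. Both HQJE brains were thus above both LQJE brains, and HQJE male 15 was the highest. Mean expression was 38.3 ± 8.70 CPM (SD, n = 2) for HQJE and 14.9 ± 0.855 CPM (SD, n = 2) for LQJE. On the log2 scale HQJE exceeded LQJE by 1.36, with a standard error of 0.183. The 2 LQJE brains differed by a ratio of 1.08, within counting error (exact 95% interval 0.911 to 1.29, as for all ratios of 2 brains given here). The 2 HQJE brains differed by 1.38-fold (interval 1.25 to 1.53), which exceeded the counting error. The closest pair across the groups, HQJE male 11 and LQJE male 17, differed by 2.07-fold (interval 1.78 to 2.42), more than the brains within either group. Over the 4 possible pairs of an HQJE and an LQJE brain, the log2 ratio of abcb11b lay between 1.05 and 1.64. Of 12 names of pineal and photoreceptor markers, tph1a, an enzyme of serotonin synthesis, and saga, an arrestin of photoreceptors, could be paired, and both come from the study's list of changed genes. Their summed expression was 72.8 and 21.1 CPM in HQJE males 15 and 11 against 16.2 and 13.2 CPM in LQJE males 17 and 18, the same order of brains as in abcb11b. Most of that sum was tph1a. By itself saga was at 11.4 CPM in HQJE male 15, 1.67 in HQJE male 11, 1.67 in LQJE male 17 and 1.63 in LQJE male 18, so it was raised in male 15 alone. Neither was past the threshold, and the part of pineal RNA in the abcb11b result was not tested.

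ACSBG1, the acyl-CoA synthetase, was the single member with less expression in HQJE males. The HQJE males 15 and 11 had 104 and 76 counts, and the LQJE males 17 and 18 had 176 and 312. Scaled to library size these were 4.73, 3.43, 12.8 and 12.4 CPM. The LQJE brains lay close together and well above both HQJE brains, of which male 11 was the lower. Mean expression was 4.08 ± 0.917 CPM (SD, n = 2) for HQJE and 12.6 ± 0.231 CPM (SD, n = 2) for LQJE, a log2 fold change of -1.62 with a standard error of 0.224. Within LQJE the ratio of the brains was 1.03 (95% interval 0.848 to 1.24), and within HQJE it was 1.38 (interval 1.01 to 1.88). Between the closest brains of the groups, LQJE male 18 and HQJE male 15, the ratio was 2.63 (interval 2.10 to 3.31). The annotation lists ACSBG1 as 1 of many copies. How alike the copies are was not examined. If they are near-identical, their reads could be split or shared, so its counts are uncertain.

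Transcripts of fast skeletal muscle followed the same order of groups as ACSBG1. Not all of the 12 marker names for this tissue could be paired. Those that could gave 8 transcripts, among them the troponins tnnt3a and tnnc2, the myosin light chain myl1 and the calcium-binding parvalbumins pvalb1 and pvalb4. Their summed expression was 15.4 and 14.8 CPM in HQJE males 15 and 11, and 47.7 and 49.8 CPM in LQJE males 17 and 18. All 8 come from the study's own list of changed genes on these same brains, and 7 of them were past the threshold as lower in HQJE males, where 0.141% of all tested transcripts were. The myosin light chain mylpfa was not past it. Its counts were 0 in both HQJE brains, 3 in LQJE male 17 and 37 in LQJE male 18. A muscle gene outside the marker names, smyd1a, went the other way. It was at 2.46 and 17.2 CPM in HQJE males 15 and 11, against 1.52 and 1.43 CPM in LQJE males 17 and 18. The part of muscle RNA in the ACSBG1 result was not tested.

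Both remaining members were highest in HQJE male 11. The acyltransferase mogat3a was read 262 times in HQJE male 15 and 557 times in HQJE male 11, against 89 times in LQJE male 17 and 126 times in LQJE male 18. The corresponding values were 11.9, 25.2, 6.45 and 5.02 CPM. Male 11 held 51.8% of the summed CPM of the 4 brains, and HQJE male 15 was still above both LQJE brains. Mean expression was 18.5 ± 9.37 CPM (SD, n = 2) for HQJE and 5.74 ± 1.01 CPM (SD, n = 2) for LQJE. This is a log2 fold change of 1.70 with a standard error of 0.383. The HQJE brains differed from each other by 2.11-fold (95% interval 1.82 to 2.46), more than the 1.85-fold (interval 1.45 to 2.38) between HQJE male 15 and LQJE male 17, the closest pair across the groups. Those intervals overlap. Only 2.17% of the 15087 transcripts that averaged 1 CPM or more had HQJE brains that differed by as much, and 26.5% had LQJE brains that differed by as much as the 1.29-fold of mogat3a.

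In gdpd3b, the glycerophosphodiester phosphodiesterase, the difference came from a single brain. HQJE male 11 had 440 counts, while HQJE male 15 had 51, LQJE male 17 had 30 and LQJE male 18 had 46. In CPM, male 11 was at 19.9 and the other brains were at 2.32, 2.17 and 1.83, respectively. HQJE male 15 was above LQJE male 17 by a ratio of only 1.07, and its 95% interval, 0.667 to 1.73, holds a ratio of 1 and lower. The groups therefore failed to overlap by less than the counts can resolve. Mean expression was 11.1 ± 12.4 CPM (SD, n = 2) for HQJE and 2.00 ± 0.242 CPM (SD, n = 2) for LQJE, so the SD in HQJE males was larger than their mean. The log2 fold change was 2.48 (standard error 0.951), the largest of the 4 in size and the least certain. The HQJE brains differed from each other by 8.57-fold (interval 6.40 to 11.7), a ratio that 0.192% of the 15087 transcripts reached, where 2.84% had HQJE brains 2-fold or more apart. Male 11 held 75.9% of the summed gdpd3b CPM, which places this transcript among the 5 carried by that brain.

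With each brain left out in turn, abcb11b and ACSBG1 kept their direction and stayed past the threshold by the quasi-likelihood test of edgeR. The log2 fold change of abcb11b ranged from 1.11 without HQJE male 15 to 1.58 without HQJE male 11, and that of ACSBG1 from -1.87 without male 15 to -1.41 without male 11. For mogat3a it was 2.14 without male 15 and still past the threshold, 1.06 without male 11, 1.88 without LQJE male 17 and 1.55 without LQJE male 18, and the last 3 were not past it. For gdpd3b the log2 fold change was 0.22 (standard error 0.490) without HQJE male 11 and 3.32 without HQJE male 15, where it was past the threshold. Without LQJE male 17 or 18 it was 2.59 and 2.37 and was not past it. Where a fit left 1 brain in a group, that brain was assumed to vary like the others. Of all transcripts tested, these fits called 0.304% without HQJE male 15, 0.359% without HQJE male 11, 0.407% without LQJE male 17 and 1.89% without LQJE male 18.

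**Figure D2:**
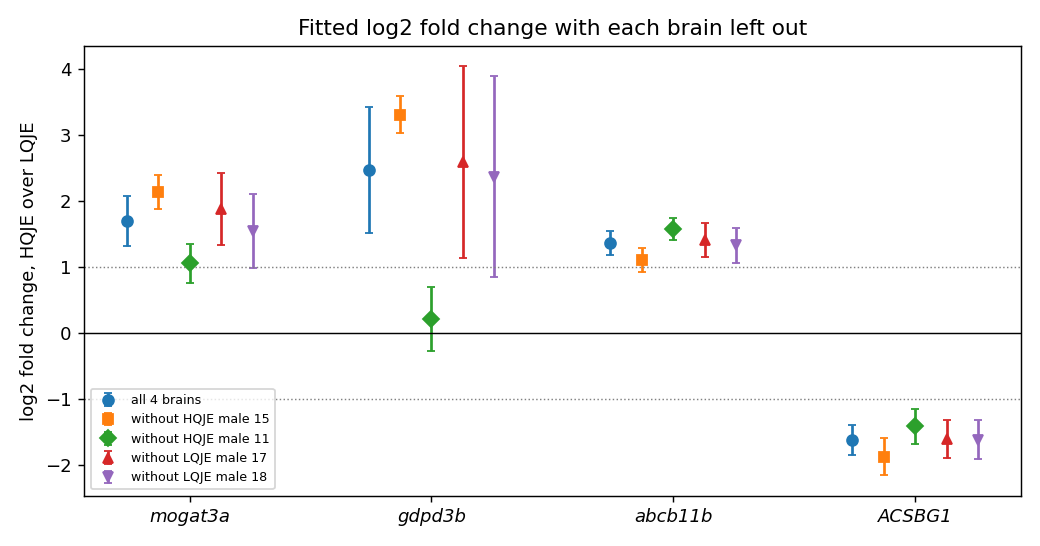
Fitted log2 fold change of HQJE over LQJE for the 4 transcripts, with all brains and with each brain left out. Bars are standard errors, the solid line marks no change and dotted lines mark a change of 2-fold. The gdpd3b value drops to 0.22 without HQJE male 11, while all values of abcb11b and ACSBG1 stay beyond the dotted lines.

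The 3 transcripts with more expression in HQJE males were not all highest in the same brain. The likeness of 2 transcripts was measured as the root mean square difference of their log2 CPM over the 4 brains after each was centred on its own mean, so that a smaller distance means a closer pattern. The distance was 0.57 between mogat3a and abcb11b, 0.70 between mogat3a and gdpd3b and 1.26 between abcb11b and gdpd3b. For scale, the median distance to 15086 other transcripts was 0.91 for mogat3a, 0.84 for ACSBG1, 0.71 for abcb11b and 1.40 for gdpd3b. HQJE male 15 was the highest brain for abcb11b, and HQJE male 11 was the highest for mogat3a and gdpd3b. ACSBG1 was farther from each of them, at distances from 1.48 to 2.08.

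Among 15086 other transcripts that averaged 1 CPM or more, the nearest to abcb11b was ENSXMAT00000014625, which has no gene name here, at a distance of 0.064. It was followed by atp1a1a.5, a subunit of the sodium pump that moves sodium and potassium across the cell membrane, at 0.097. The CPM of atp1a1a.5 was 13.1 in HQJE male 15, 9.72 in HQJE male 11, 5.22 in LQJE male 17 and 3.98 in LQJE male 18, the same order of brains as in abcb11b. The third nearest was again without a gene name, at 0.12.

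The transcripts nearest to ACSBG1 were 2 troponins of the fast muscle marker list, tnnt3a at a distance of 0.14 and a copy of tnni2a.4 at 0.15. The CPM of tnnt3a was 2.87 in HQJE male 15, 2.67 in HQJE male 11, 8.12 in LQJE male 17 and 7.93 in LQJE male 18. The third, at 0.19, has no gene name here. Copies of tnni2a.4, if near-identical, can share reads, which was not examined, so its counts are uncertain.

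For mogat3a the nearest transcripts were mpx, a peroxidase of myeloid cells, at a distance of 0.19, an unnamed transcript at 0.21, and pcmtd1, which has a protein repair methyltransferase domain, at 0.25. The CPM of mpx was 8.32 in HQJE male 15, 17.3 in HQJE male 11, 5.29 in LQJE male 17 and 2.79 in LQJE male 18. As in mogat3a, male 11 was the highest brain, with 51.3% of the summed CPM.

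For gdpd3b the nearest were smyd1a, a muscle histone methyltransferase, at 0.21, an unnamed transcript at 0.25 and cdk21, a cyclin-dependent kinase, at 0.39. All 3 were highest in HQJE male 11. The CPM of smyd1a was 17.2 in male 11 and 2.46, 1.52 and 1.43 in HQJE male 15, LQJE male 17 and LQJE male 18. The named neighbours of the 4 members all come from the study's list of changed genes, which was the source of gene names, so they were chosen on the same brains.

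**Figure D3:**
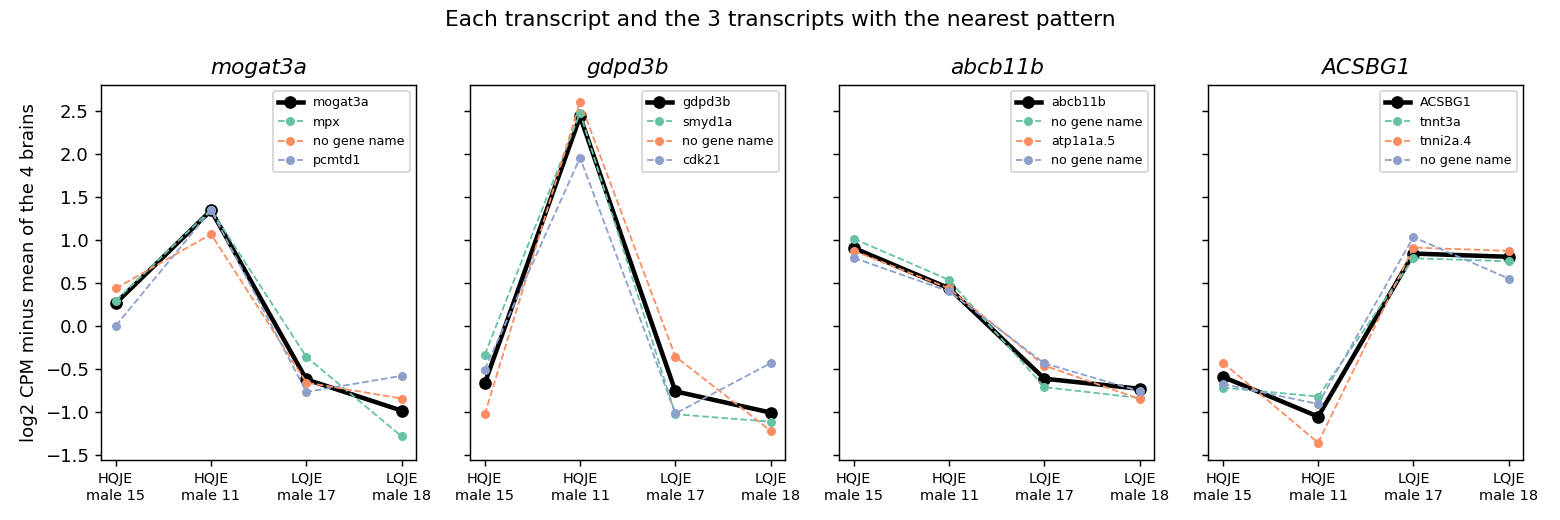
Log2 CPM of each of the 4 transcripts (black) and of the 3 transcripts nearest to it in pattern (dashed), each centred on its own mean over the 4 brains. In abcb11b and ACSBG1 male 15 lies above male 11, while gdpd3b and its neighbours are by far the highest in male 11. Distances ran from 0.064 to 0.39 and used log2 CPM with a prior count of 2, while the curves are drawn without one.

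Beyond the 4 members, names for 6 groups of lipid genes, relatives of abcb11b included, were set out, 218 names in all. Since gene names were known only for the study's list of changed genes, 5 other transcripts could be paired with them, and none of the 5 was past the threshold by the quasi-likelihood test of edgeR, although 1 of them, apoea, had an unadjusted p of 0.0114 and 7.59% of all tested transcripts had one of 0.05 or less. The edgeR exact test called 2 of the 5 (0.406% of all transcripts), the edgeR likelihood ratio test 3 (0.655%) and DESeq2 0 (0.287%). Without TMM scaling (0.217%), with DESeq2 size factors (0.233%) or with the filterByExpr filter (0.216%) the quasi-likelihood test called 0. With a brain left out it called 2 of the 5 without HQJE male 15 (0.304%), and 1 each without HQJE male 11 (0.359%), LQJE male 17 (0.407%) and LQJE male 18 (1.89%). These 5 were also chosen on these brains. No gene of fatty acid synthesis and elongation was paired.

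Of these 5, 2 encode membrane proteins, and their values were also highest in HQJE male 11. The sulfonylurea receptor abcc8 forms part of an ATP-sensitive potassium channel and belongs to the same superfamily as abcb11b. Expression of abcc8 was 15.8 CPM in HQJE male 15, 47.9 in HQJE male 11, 16.5 in LQJE male 17 and 13.7 in LQJE male 18. Its log2 fold change was 1.08 (standard error 0.495). The phospholipid-transporting ATPase atp8b4 was at 22.4 CPM in HQJE male 15, 82.0 in HQJE male 11, 17.0 in LQJE male 17 and 22.6 in LQJE male 18, a log2 fold change of 1.39 with a standard error of 0.577. In both transcripts HQJE male 15 lay within the range of the LQJE brains and the groups overlapped.

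The other 3 were read rarely or in 1 brain. The apolipoprotein apoea, a carrier of lipids between cells, had 1 and 0 counts in HQJE males 15 and 11 and 4 and 18 counts in LQJE males 17 and 18. The phytanoyl-CoA dioxygenase domain transcript zgc:174917 had 36 counts in HQJE male 15 and 2, 0 and 2 counts in HQJE male 11, LQJE male 17 and LQJE male 18. The nuclear receptor coactivator pnrc2 had 168 counts in LQJE male 17 and 0 in the other 3 brains, where a count of 0 allows up to 3 counts, or 0.120 to 0.136 CPM, for counting error only.

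**Figure D4:**
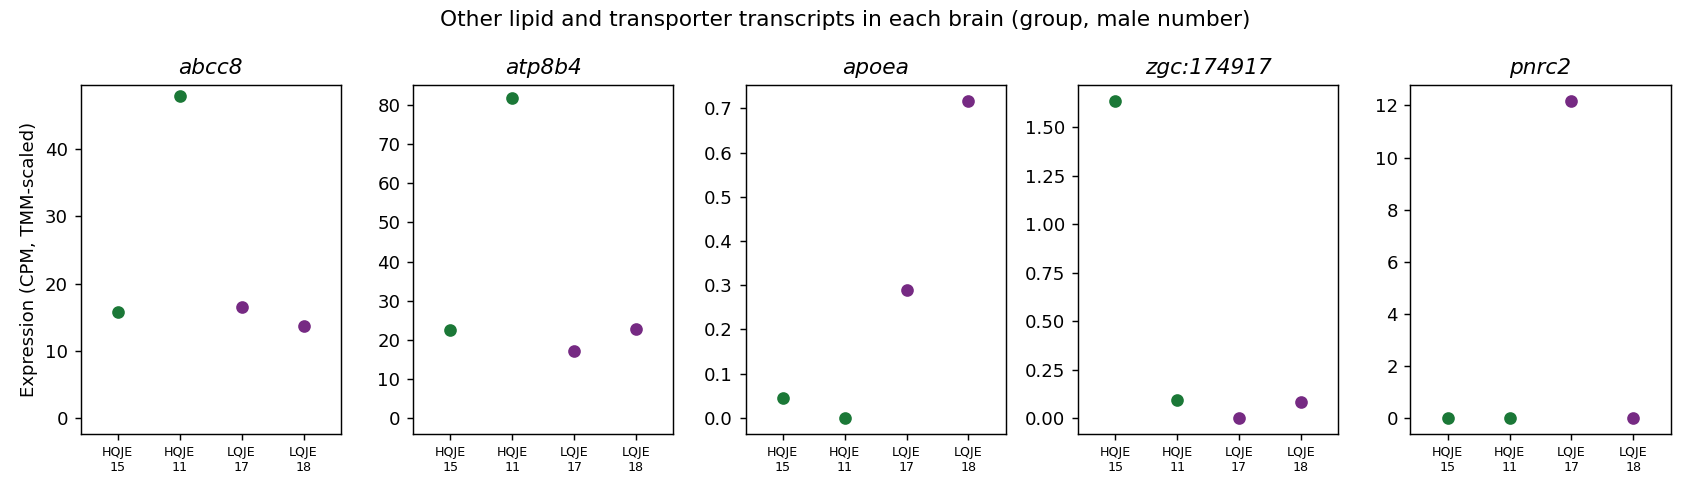
Expression of abcc8, atp8b4, apoea, zgc:174917 and pnrc2 in each brain, in CPM on linear axes. Each point is 1 brain. The highest point is HQJE male 11 in abcc8 (47.9 CPM) and atp8b4 (82.0 CPM), LQJE male 18 in apoea, HQJE male 15 in zgc:174917 and LQJE male 17 in pnrc2.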

How the data were processed

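The authors prepared 1 TruSeq library per brain, quality-trimmed the paired reads, mapped them to the *X. multilineatus* transcriptome (identifiers of *X. maculatus*) using Bowtie2, and deposited unnormalized read counts. The handling of read pairs, strand and multiple matches is not stated in the sources used here.

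Groups came from the sample labels, which exchange 2 letters (LJQE, HJQE), and from the methods. After removal of 398 transcripts without any count, the rest were compared with edgeR 4.0.16 (R 4.3.3, limma 3.58.1) by TMM scaling and the quasi-likelihood test. The methods do not name which edgeR test the study itself used. Values of p were adjusted over all 18474 transcripts by the Benjamini-Hochberg method. Standard errors were obtained from the F statistic, as the size of the log2 fold change over its square root. Log2 CPM for distances used a prior count of 2. Ratios of 2 brains carry exact (Clopper-Pearson) 95% intervals that cover counting error alone, as do limits for a count of 0, because no molecular identifiers separate molecules from copies. For 2 brains against 2, an exact two-sided permutation test cannot go below p = 0.333. All sample titles carry the same date, so no batch could be separated. The procedure was tested on simulated data in which both brains of a group had the same change. The planted change was larger than the differences between group means of mogat3a, ACSBG1 and abcb11b. The simulation does not cover changes of their size or transcripts raised in a single brain. Its outcome is not given here, and nothing is read from it.

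Named are the 4 members, the list members of the lipid groups, and the 3 transcripts nearest to each member. At most 2 identifiers without a gene name were to be printed for each direction. The members and lists were chosen with earlier results of these data known. Gene names come from the study's list of changed genes alone (97 named transcripts). The marker list of glia matched only cx43.4, a different connexin from the one intended, and was not used. Alternatives were the edgeR exact and likelihood ratio tests, library sizes without TMM, DESeq2 (1.42.0) and its size factors, the filterByExpr filter, and each brain left out.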

Additional observations from a re-analysis of the deposited data

How the results depend on the processing

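The direction of all 4 transcripts was kept in each of the 10 alternatives run for it. Leaving out a brain could hardly turn it, because the groups did not overlap in any of the 4. Nothing is read from the kept direction. Under the other tests, scalings and the filterByExpr filter, mogat3a, ACSBG1 and abcb11b stayed past the threshold, at log2 fold changes from 1.70 to 1.78, -1.62 to -1.55 and 1.36 to 1.43. The gdpd3b transcript came past the threshold with the edgeR exact test and with the likelihood ratio test, each at 2.47. Among all transcripts, 35 (0.189%) were called by the quasi-likelihood test, 75 (0.406%) by the exact test, 121 (0.655%) by the likelihood ratio test and 53 (0.287%) by DESeq2. The study's own list held 131 transcripts, a number that none of these tests gave here. Of the 9 lipid transcripts paired with a name, 3 were called by the quasi-likelihood test, 6 by the exact test and 7 by the likelihood ratio test. All 9 come from the study's list of changed genes, so nothing is read from their count in any fit, those with a brain left out included. The cause of the difference between the tests was not tested.

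With each brain left out, the log2 fold change ranged from 1.06 to 2.14 for mogat3a, whose call was lost without HQJE male 11, LQJE male 17 or LQJE male 18, and from 0.22 without HQJE male 11 to 3.32 without HQJE male 15 for gdpd3b. The count over all transcripts ranged from 56 without HQJE male 15 to 348 without LQJE male 18, with 75 without LQJE male 17 and 66 without HQJE male 11, and that of the 9 lipid transcripts from 3 to 6, the latter without HQJE male 15. Counts of 51 or fewer in 3 of the 4 brains limit what can be said of gdpd3b. No paired analysis was possible because the sample labels link no male of a group to a male of the other.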
